A study of Mus musculus with 3 samples.

Results

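The hypoxia response genes described here are 10 genes picked by name: Hif1a, Epas1, Egln1, Egln3, Ndrg1, Bnip3, Car9, Vegfa, Adm and P4ha1. All of them were found among the 15529 named genes of the 3 tables. B16-F1 lists 10 of them, Cloudman S91 lists 9 and 4T1 lists 9, because Egln3 is missing from the Cloudman S91 table and Epas1 from the 4T1 table. The values are messenger RNA levels in 3 mouse tumour cell lines, each measured in 1 RNA sequencing library. B16-F1 is labelled as a C57BL/6J skin melanoma line and Cloudman S91 as a DBA skin melanoma line, both kept in DMEM. The mammary carcinoma line 4T1 is labelled BALB/cfC3H and was kept in RPMI, so tumour type, strain and medium cannot be told apart as sources of a difference between 4T1 and the melanoma lines. Between the melanoma lines, strain and cell line cannot be told apart either. Each medium held FBS. The labels name no treatment and give neither an oxygen level nor a cell density for any culture.

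Cells sense oxygen through the hypoxia-inducible factors (HIFs), transcription factors made of an oxygen-sensitive alpha subunit and a stable beta subunit. When oxygen is plentiful, prolyl hydroxylases of the EGLN family mark the alpha subunit, and the von Hippel-Lindau ligase (VHL) sends it for degradation. When oxygen falls the alpha subunit persists, pairs with the beta subunit ARNT and binds short response elements in its target genes. This control acts mainly on the protein, so the messenger RNA of an alpha subunit is not a measure of its activity. Several of the targets, Egln1 and Egln3 among them, feed back on the pathway, and others serve blood vessel growth, pH balance, mitochondrial turnover and collagen assembly in tumours.

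The level of a gene is given as FPKM, fragment counts scaled to transcript length and to the library total. A fold between lines also depends on how the libraries are scaled, and results under other scalings are given below. Brackets hold exact 95% intervals computed from the expected counts. The tables sum to between 7412840 and 9098072 expected counts per library. Each line has a single library, so there is no replicate spread, no test and no p-value, and the intervals cover counting error only. Fewer cells expressing a gene and less RNA per cell cannot be told apart in such bulk samples. A difference was called when it reached 2 in log2(FPKM + 1), 4-fold on that scale, with a level of at least FPKM 1 in either library. The 7 melanocytic markers summed to FPKM 10208 in B16-F1 and 8933 in Cloudman S91, against 7.08 in 4T1, and the 7 epithelial markers to 0.51, 2.62 and 2089. Most of the melanocytic sum in 4T1 came from Tyr, at 5.74 against 4.99 in Cloudman S91, while Dct, Tyrp1, Mlana and Sox10 were not listed there. Of the endothelial markers, Pecam1 and Cdh5 did not pass 0.15 in any line, and the summed list stood at 1.47, 11.8 and 0.24, of which Vwf alone gave 11.6 in Cloudman S91. The haematopoietic list summed to 3.08, 0.50 and 11.6, mostly from Cd68, and Ptprc did not pass 0.06. The fibroblast list summed to 3.63, 20.3 and 1.21, with Pdgfra at 15.6 in Cloudman S91, and the erythroid list to 9.15, 8.27 and 0.06. The part of these markers in the results was not tested.

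HIF binds at hypoxia response elements, whose core reads ACGTG or GCGTG. RefSeq promoter windows of the GRCm38.p6 assembly, from 250 bases before a transcript start to 50 bases after it, were available for 8 of the 10 genes, all but Epas1 and Ndrg1. They gave 9 windows, since Vegfa has a pair. The windows below belong to Bnip3 and Egln3, which passed the 4-fold rule in some comparison, to Hif1a, whose order of the lines was the reverse of that of Egln1, Egln3, Ndrg1 and Car9, and to Car9, a gene commonly used as a hypoxia marker. Each is written 5′ to 3′ along the gene, and that of Hif1a lies at a start inside the annotated gene. Capitals mark the core letters on either strand (CACGT and CACGC are their reverse complements) and the palindrome CACGTG, an E-box that holds a core on both strands and is also a site for basic helix-loop-helix factors other than HIF.
Bnip3, chr7:138909457-138909756, minus strand: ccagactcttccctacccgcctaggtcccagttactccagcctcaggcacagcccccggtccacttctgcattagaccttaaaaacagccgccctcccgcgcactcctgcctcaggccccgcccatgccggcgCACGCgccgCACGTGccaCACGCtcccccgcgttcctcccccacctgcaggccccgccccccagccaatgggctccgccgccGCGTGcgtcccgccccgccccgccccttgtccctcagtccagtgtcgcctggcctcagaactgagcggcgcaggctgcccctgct
Egln3, chr12:54203825-54204124, minus strand: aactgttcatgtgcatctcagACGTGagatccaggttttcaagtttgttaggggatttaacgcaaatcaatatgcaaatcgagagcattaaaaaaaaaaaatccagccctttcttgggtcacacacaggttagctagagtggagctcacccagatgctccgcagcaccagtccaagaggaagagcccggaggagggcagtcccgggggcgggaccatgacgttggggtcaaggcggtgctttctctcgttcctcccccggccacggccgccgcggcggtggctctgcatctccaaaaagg
Hif1a, chr12:73907617-73907916, plus strand: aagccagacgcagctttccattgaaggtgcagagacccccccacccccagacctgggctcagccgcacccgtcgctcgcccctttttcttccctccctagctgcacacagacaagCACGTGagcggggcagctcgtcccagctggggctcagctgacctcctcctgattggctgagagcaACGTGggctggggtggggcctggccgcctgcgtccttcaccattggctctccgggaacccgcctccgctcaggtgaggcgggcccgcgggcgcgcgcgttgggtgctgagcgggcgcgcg
Car9, chr4:43506776-43507075, plus strand: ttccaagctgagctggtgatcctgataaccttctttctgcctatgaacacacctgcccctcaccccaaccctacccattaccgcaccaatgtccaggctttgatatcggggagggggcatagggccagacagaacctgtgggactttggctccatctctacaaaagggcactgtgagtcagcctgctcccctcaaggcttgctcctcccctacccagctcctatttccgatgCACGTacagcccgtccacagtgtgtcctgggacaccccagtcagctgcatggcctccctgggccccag

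A core was present in 8 of the 9 windows (88.9%) and in at least 1 window of each of the 8 genes. Vegfa counts here only through a window at a start inside the annotated gene, and the window at its outer start held no core. The same letters occurred in 43.8% of all 32851 promoter windows and in 62.5% of the 11867 windows of genes at FPKM 1 or more in any line, so a match is common. ACGTG was found in 7 of the 9 windows, all but Adm's and the first of Vegfa, against 19.6% of all windows and 25.5% of those of expressed genes. GCGTG was found in 5 of the 9 (55.6%), near its share in windows of expressed genes (51.1%), against 32.4% of all windows. Bnip3 held the most matches, 5, packed between 117 and 35 bases before the start, and Hif1a and P4ha1 held 3 each. In Bnip3 and Hif1a a single palindrome CACGTG is counted on both strands, so they have fewer separate sites than matches. The palindrome CACGTG was found in the windows of Bnip3 and Hif1a, in 10.1% of expressed-gene windows and in 7.15% of all. Car9 had a single core 18 bases before its start and Egln3 a single core 229 bases before. Egln1 has a very GC-rich window (86.0% G or C, where the median for expressed genes was 61.0%). A match of letters is a description of sequence and shows no binding, and these windows leave out elements that lie further away.

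**Figure D1:**
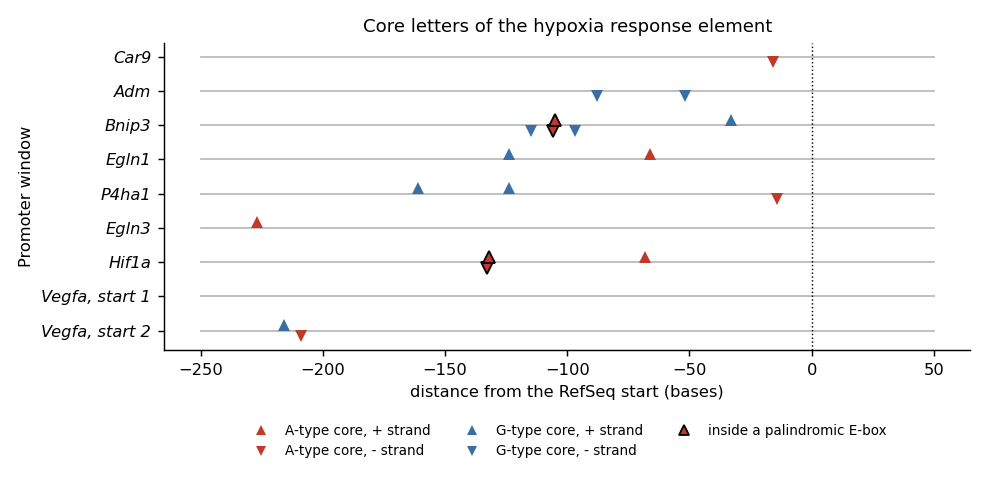
Positions of the core letters in 9 promoter windows of 8 hypoxia response genes, plotted at the centre of each match against the distance in bases from the RefSeq transcript start. Red marks the core that starts with A, blue the core that starts with G, the triangle's direction gives the strand and a black rim a match inside the palindromic E-box. Bnip3 carries 5 matches and the first Vegfa window none.

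Among the transcription factor subunits, Hif1a was the main alpha subunit message in every line, and it was about 3-fold higher in the melanoma lines. Hif1a (chromosome 12, 73901324 to 73947554, GRCm38.p6), which encodes the broadly expressed HIF-1 alpha, had FPKM 44.4 in B16-F1 [42.4 to 46.4], 51.7 in Cloudman S91 [49.3 to 54.1] and 15.3 in 4T1 [14.1 to 16.5]. The ratio to 4T1 was 2.91 for B16-F1 [2.65 to 3.19] and 3.38 for Cloudman S91 [3.08 to 3.71], both short of the 4-fold rule. Cloudman S91 exceeded B16-F1 by a factor of 1.16 [1.09 to 1.24].

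Epas1 (chromosome 17, 86753864 to 86833410) encodes HIF-2 alpha, the alpha subunit prominent in endothelium and in kidney tumours. It had FPKM 1.28 in B16-F1 [0.98 to 1.64] and 2.54 in Cloudman S91 [2.07 to 3.09], a ratio of 1.98 in favour of Cloudman S91 [1.43 to 2.77]. The 4T1 table did not list it, and 3 counts there would stand for FPKM 0.064. Against that limit Epas1 was at least 20.1-fold higher in B16-F1 and at least 39.8-fold higher in Cloudman S91, yet neither difference was called, since on the log2(FPKM + 1) scale they came to 1.19 and 1.82. Both alpha subunits were lowest in 4T1. Per length, Hif1a stood 34.7-fold above Epas1 in B16-F1 and 20.3-fold above it in Cloudman S91.

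Arnt, the beta subunit, followed the same order at FPKM 17.8 in B16-F1 and 21.8 in Cloudman S91, against 9.64 in 4T1. Hif3a, whose product can restrain the other subunits, was at 3 counts or fewer in every library. No gene of the 5 on the subunit list passed the 4-fold rule in any pair. Compared were 4 between the melanoma lines, 3 between B16-F1 and 4T1 and 4 between Cloudman S91 and 4T1. Of all genes compared, 5.52%, 13.7% and 15.5% passed it in these pairs. Under another scaling, TPM, Hif1a and Epas1 passed it between Cloudman S91 and 4T1. Epas1 also passed it against 4T1 in 2 further settings. The differences for B16-F1 and Cloudman S91 were 3.79 and 4.72 with 0.1 in place of 1 added to the FPKM. In counts over the library total they were 2.97 and 3.86.

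Of the oxygen sensors, Egln1 and Egln3 were highest in 4T1 and lowest in Cloudman S91, the reverse of Hif1a, while Egln2 and Hif1an kept the order of Hif1a. Egln1 (chromosome 8, 124908587 to 124949254), the main HIF prolyl hydroxylase under normal oxygen, had FPKM 30.8 in B16-F1 [28.9 to 32.8], 20.6 in Cloudman S91 [18.9 to 22.4] and 42.6 in 4T1 [40.3 to 44.9]. Its intervals did not meet, and 4T1 exceeded Cloudman S91 by a factor of 2.07 [1.87 to 2.29].

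Egln3 (chromosome 12, 54178981 to 54203874), a hydroxylase that is itself strongly induced by HIF in many cells, was not listed in every line. It had FPKM 1.37 in B16-F1 [0.94 to 1.92] from 33 counts and 15.4 in 4T1 [13.8 to 17.0] from 362 counts, and Cloudman S91 did not list it. 4T1 was 11.2-fold above B16-F1 [7.84 to 16.5] and at least 101-fold above Cloudman S91, where 3 counts would stand for FPKM 0.152. Taking 4T1 away from each melanoma line, the differences in log2(FPKM + 1) were -2.79 in B16-F1 and -4.03 in Cloudman S91, and both were called, the first of them lost at a pseudocount of 5 (-1.68). B16-F1 was at least 9.0-fold above Cloudman S91, a difference of 1.24 that was not called.

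Egln2, the remaining hydroxylase of the family, had FPKM 19.2 in B16-F1 and 24.5 in Cloudman S91, against 15.6 in 4T1. The make-up of the family differed between libraries. Of the summed FPKM of the 3 genes, Egln3 gave 20.9% in 4T1 but 2.67% in B16-F1 and nothing in Cloudman S91. Egln2 gave 54.4% in Cloudman S91, where it was the largest share, and 37.3% in B16-F1 and 21.2% in 4T1, where Egln1 was the largest. The summed level was 51.4 in B16-F1 and 45.1 in Cloudman S91, against 73.5 in 4T1. Hif1an, the asparagine hydroxylase that blocks the activation domain of the alpha subunits, had 12.7, 15.2 and 8.67, and Vhl had 13.3, 8.0 and 6.98 in the same line order. Of the 13 genes on the list of hydroxylases and the VHL and SIAH ligases, Egln3 was the only gene past the 4-fold rule in any pair. Among all genes compared, 5.52% passed it between the melanoma lines, 13.7% between B16-F1 and 4T1 and 15.5% between Cloudman S91 and 4T1.

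**Figure D2:**
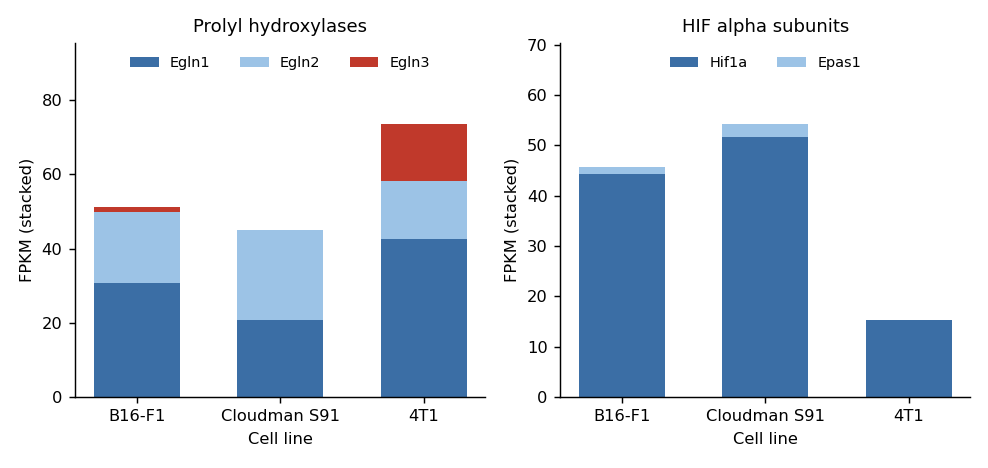
Stacked FPKM of the prolyl hydroxylases Egln1, Egln2 and Egln3 (left) and of the alpha subunits Hif1a and Epas1 (right) in the 3 cell lines, 1 library each. 4T1 has the tallest hydroxylase bar (73.5), with the only sizeable Egln3 segment, and the shortest alpha subunit bar (15.3).

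Ndrg1 had the widest range of the members listed in all 3 tables. Ndrg1 (chromosome 15, 66929318 to 66969641) is a cytoplasmic stress-response protein, induced by hypoxia and by differentiation. Its FPKM was 25.6 in B16-F1 [23.7 to 27.6], 7.88 in Cloudman S91 [6.73 to 9.17] and 143 in 4T1 [139 to 148]. In 4T1 it ranked 514 among the 13188 named genes listed, in B16-F1 3209 among 13606 and in Cloudman S91 7112 among 13884. 4T1 stood 5.60-fold above B16-F1 [5.16 to 6.09] and 18.2-fold above Cloudman S91 [15.6 to 21.4], and both were called, with differences of -2.44 and -4.02. B16-F1 was 3.25-fold above Cloudman S91 [2.74 to 3.87], which was not called.

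The other NDRG genes did not share this order. Ndrg3 was highest in B16-F1 (26.5, against 22.8 in Cloudman S91 and 8.77 in 4T1). Ndrg2 was called higher in Cloudman S91 (6.28) than in B16-F1 (0.45) and in 4T1 (0.27), and Ndrg4 lay between 2.14 and 3.0. The level of Ndrg3 per length was close to that of Ndrg1 in B16-F1, above it in Cloudman S91 and far below it in 4T1.

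Bnip3 was the only member called higher in B16-F1 than in another line. Bnip3 (chromosome 7, 138890836 to 138909506) encodes a mitochondrial outer membrane protein that recruits the autophagy machinery to mitochondria. It had FPKM 48.7 in B16-F1 [45.3 to 52.3], 10.5 in Cloudman S91 [8.82 to 12.5] and 17.9 in 4T1 [15.8 to 20.1]. B16-F1 exceeded Cloudman S91 by 4.62-fold [3.84 to 5.60], a called difference of 2.11, and exceeded 4T1 by 2.72-fold [2.37 to 3.14], which was not called. The call is marginal: it was lost at a pseudocount of 5 and under median-of-ratios and upper-quartile scaling, with a lowest difference of 1.79. In Cloudman S91 the count of Bnip3, 132.88, was not whole, and an assembled row without a symbol that is described as BNIP3 held the other 12.12 counts, which makes 145 in all. With these added at the length of Bnip3, a step taken after the values were seen, the FPKM became 11.5, the ratio 4.24 and the difference 1.99, just under the rule. The paralog Bnip3l, another mitophagy receptor, had 37.3 in B16-F1 and 24.96 in Cloudman S91, against 35.4 in 4T1, so Bnip3 exceeded its paralog only in B16-F1.

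Car9 (chromosome 4, 43507026 to 43513729) encodes carbonic anhydrase IX, a cell surface enzyme that helps tumour cells export acid. It was low in all lines, with FPKM 2.02 in B16-F1 [1.41 to 2.81] from 35 counts, 1.13 in Cloudman S91 [0.65 to 1.84] from 16 counts and 7.12 in 4T1 [5.93 to 8.48] from 125 counts. 4T1 exceeded B16-F1 by 3.52-fold [2.41 to 5.29] and Cloudman S91 by 6.30-fold [3.73 to 11.4]. The melanoma lines could not be told apart at this depth, with a ratio of 1.79 [0.96 to 3.46]. No difference of Car9 was called, the nearest being -1.93 for Cloudman S91 minus 4T1.

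Its relatives on the membrane divided the lines more sharply. Car12, a second surface enzyme of this kind, was called higher in 4T1 (14.5) than in B16-F1 (0.94) and Cloudman S91 (1.07), with ratios of 15.5 [10.7 to 23.0] and 13.6 [9.33 to 20.5]. Car14, also a membrane-bound form, was called in the opposite direction, with 185 in B16-F1 and 44.4 in Cloudman S91, against 2.22 in 4T1. It was called between the melanoma lines too (4.16-fold, 3.79 to 4.58), but only marginally, with a difference of 2.03 against the rule of 2. That is nearer the rule than the 2.11 of Bnip3, whose call was lost under median-of-ratios and upper-quartile scaling. Slc16a3, the lactate exporter that HIF induces in many cells, had 43.3 and 30.2 in the melanoma lines and 0.10 in 4T1, from 2 counts, a ratio of 433 for B16-F1 [120 to 3584]. So 4T1 held the highest Car9 and Car12 of the 3 libraries and the lowest Car14 and Slc16a3.

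Vegfa (chromosome 17, 46016993 to 46032377), the main growth factor for blood vessels, was found at a moderate level in every line. It had FPKM 16.7 in B16-F1 [15.3 to 18.3], 17.7 in Cloudman S91 [15.99 to 19.5] and 29.4 in 4T1 [27.4 to 31.5]. The melanoma lines did not differ beyond counting error (1.05-fold, 0.92 to 1.20), and 4T1 lay 1.76-fold above B16-F1 [1.57 to 1.97]. The tables gave Vegfa 10 RefSeq transcripts and 1 or 2 assembled ones, so a shift between its isoforms is not seen in these gene totals.

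Of its receptors, Kdr was at 3 counts or fewer in every library, and Flt1 was found in 4T1 (4.79), not listed in B16-F1 and at 2 counts in Cloudman S91. The co-receptor Nrp2, which also binds semaphorins, had 63.3 in B16-F1 and 52.1 in 4T1 but 0.26 in Cloudman S91, a ratio of 243 between the melanoma lines [139 to 471], while Nrp1 was near 9 in both (9.19 and 9.06) and had 2.76 in 4T1. Pgf, a related ligand of Flt1, was called higher in Cloudman S91 (5.47) than in B16-F1 (0.57).

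Adm (chromosome 7, 110627657 to 110629820) encodes adrenomedullin, a secreted peptide that widens vessels. It was low, with FPKM 5.06 in B16-F1 [3.87 to 6.5] from 61 counts, 1.63 in Cloudman S91 [0.93 to 2.65] from 16 counts and 3.39 in 4T1 [2.42 to 4.62] from 40 counts. B16-F1 exceeded Cloudman S91 by 3.10-fold [1.77 to 5.77], and B16-F1 and 4T1 could not be told apart (1.49-fold, 0.99 to 2.28). Its receptor needs Calcrl together with a RAMP protein. Calcrl was listed only in B16-F1 (0.49, 21 counts), while Ramp2 was called higher in B16-F1 (10.7) and Cloudman S91 (9.09) than in 4T1 (0.42).

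P4ha1 (chromosome 10, 59323197 to 59373304), the catalytic subunit of the enzyme that hydroxylates collagen prolines, had FPKM 25.1 in B16-F1 [23.5 to 26.7], 14.8 in Cloudman S91 [13.4 to 16.2] and 13.7 in 4T1 [12.5 to 15.0]. B16-F1 was higher than both, by 1.70-fold [1.51 to 1.91] and 1.83-fold [1.64 to 2.04], and Cloudman S91 and 4T1 did not differ beyond counting error (1.08-fold, 0.94 to 1.23). The paralog P4ha2 kept the same order at 14.5, 5.57 and 5.38. Among the lysyl hydroxylases, Plod2, also a HIF target, had 31.1 in B16-F1 and 17.7 in 4T1 but 0.30 in Cloudman S91 (8 counts), a called difference from either line, and Plod1 was called higher in B16-F1 (51.5) than in 4T1 (5.25).

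**Figure D3:**
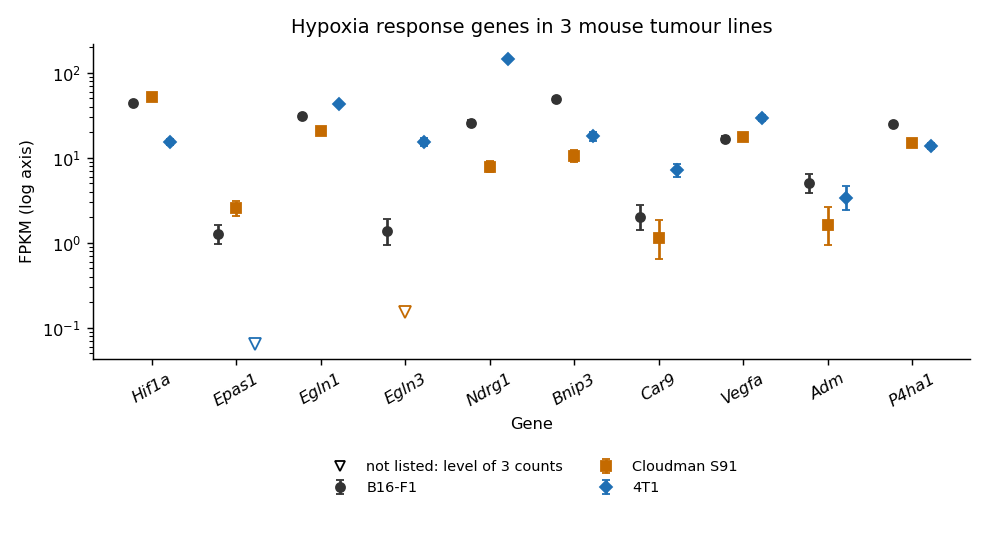
FPKM (log axis) of the 10 hypoxia response genes in B16-F1 (circles), Cloudman S91 (squares) and 4T1 (diamonds), 1 library each. Bars are exact 95% Poisson intervals, and open triangles mark the level that 3 counts would have in a library that does not list the gene. Ndrg1 in 4T1 is the highest point at 143, and the melanoma symbols lie above 4T1 for Hif1a and Epas1.

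Seen over the 10 genes, no line was high throughout. 4T1 had the highest level of 5 members (Egln1, Egln3, Ndrg1, Car9 and Vegfa), B16-F1 of 3 (Bnip3, Adm and P4ha1) and Cloudman S91 of 2 (Hif1a and Epas1). Cloudman S91 had the lowest level of 6 members, 4T1 of 3 and B16-F1 of 1. Over the 11944 genes at FPKM 1 or more in any line, 4T1 was highest for 41.3%, B16-F1 for 33.8% and Cloudman S91 for 24.8%, and the lowest library was 4T1 for 38.1%, Cloudman S91 for 36.1% and B16-F1 for 22.7%. Of the 6 genes lowest in Cloudman S91, the counting interval of the ratio to the next line lay above 1 for Egln1, Ndrg1, Bnip3 and Adm and held 1 for Car9, and Egln3 has only a lower bound. Under each of 4 other scalings, TPM, median of ratios, upper quartile and counts over the library total, the order of the lines was the same for all 10 genes.

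Between the melanoma lines, 1 of 10 members was called, Bnip3, higher in B16-F1, where 5.52% of the 11133 genes compared were called (2.33% higher in B16-F1 and 3.19% higher in Cloudman S91). The members' median difference was 0.64, and that of all genes 0.14. Between B16-F1 and 4T1, 2 of 10 were called, Egln3 and Ndrg1, both higher in 4T1, against 13.7% of 11547 genes (6.31% higher in B16-F1 and 7.43% higher in 4T1), and the medians were 0.0061 for the members and 0.03 for all genes. Between Cloudman S91 and 4T1 the same 2 were called, again higher in 4T1, against 15.5% of 11657 genes (7.47% higher in Cloudman S91 and 8.01% higher in 4T1). Here the members' median was -0.73 and that of all genes -0.14. Under TPM, which moved the median of all genes to 0.07, 0.34 and 0.24 in the 3 pairs, Hif1a and Epas1 also passed the rule in the last pair, so that 2 members were higher in each line, and of all genes 1398 were then called higher in Cloudman S91 and 979 in 4T1. The comparisons share libraries and are not independent of each other.

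**Figure D4:**
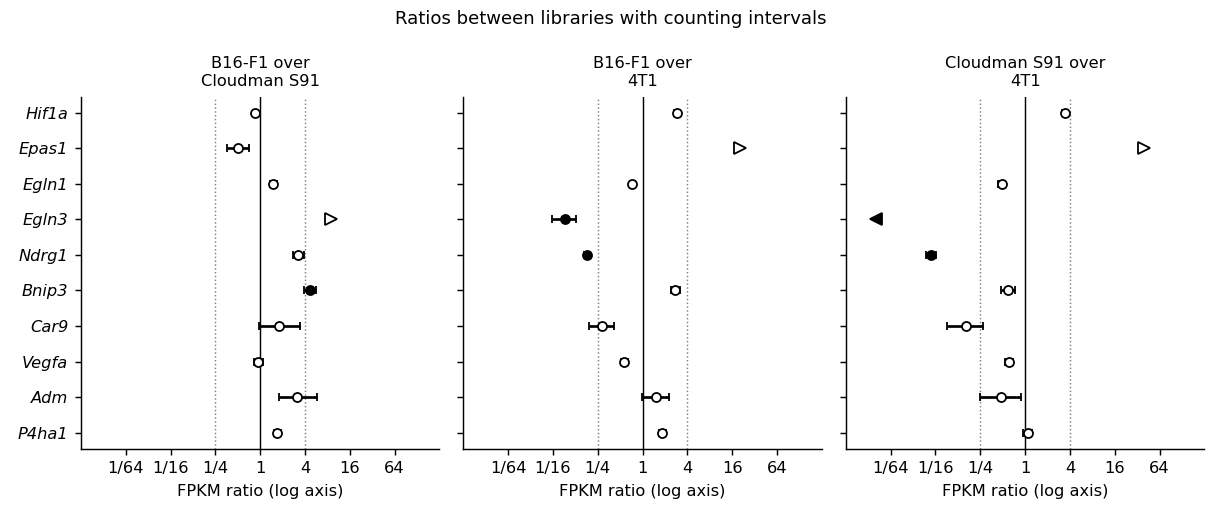
FPKM ratios of the 10 hypoxia response genes for each pair of lines, on a log axis, with exact 95% counting intervals. Filled symbols passed the rule of 2 in log2(FPKM + 1), triangles are lower bounds against a line that does not list the gene, and dotted lines mark 4-fold. Only Bnip3 is filled in the first panel, and Egln3 and Ndrg1 are filled in the other panels.

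Wider lists of the pathway, 117 genes in all with 114 in the tables, held called genes in both directions. Between B16-F1 and Cloudman S91, 12 of 97 compared were called, 8 higher in B16-F1 and 4 higher in Cloudman S91, with a median of 0.31. Under median-of-ratios and under upper-quartile scaling this split was 5 and 4. Between B16-F1 and 4T1, 20 of 95 were called, 8 higher in B16-F1 and 12 in 4T1 (median 0.33), and the split was 12 and 12 in counts over the library total and 30 and 20 at 2-fold. For Cloudman S91 and 4T1 the count was 19 of 98, 6 higher in Cloudman S91 and 13 in 4T1 (median -0.28), and under TPM it was 15 and 12, so in both pairs with 4T1 the direction of the majority depended on the setting. Of all genes compared, 5.52%, 13.7% and 15.5% were called in the 3 pairs.

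Among the coactivators and feedback regulators of HIF, none of the 8 compared was called between the melanoma lines and 1 in each pair with 4T1. Of all genes compared, 5.52% were called between the melanoma lines, 13.7% between B16-F1 and 4T1 and 15.5% between Cloudman S91 and 4T1. The gene called was Bhlhe41, a basic helix-loop-helix repressor that also acts in the circadian clock. It had 33.5 in B16-F1 and 29.2 in Cloudman S91 against 2.54 in 4T1. On the list of mitochondrial targets, Pdk1, a pyruvate dehydrogenase kinase, was called higher in B16-F1 (11.8) than in Cloudman S91 (0.10, 4 counts), and 4T1 had 3.32. Ndufa4l2, a mitochondrial protein, was called higher in Cloudman S91 (3.77) than in 4T1, which did not list it.

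Of the 38 genes on the list of other HIF targets, which includes Egln3, 5 of 33 were called between the melanoma lines (3 higher in B16-F1), 11 of 34 between B16-F1 and 4T1 (8 higher in 4T1) and 8 of 34 between Cloudman S91 and 4T1 (all higher in 4T1). Of all genes compared, 5.52%, 13.7% and 15.5% were called in these pairs, and 7.43% and 8.01% were called higher in 4T1 in the pairs with it. Pdgfb, a growth factor for pericytes, had 33.3 in 4T1, was not listed in B16-F1 and had 1 count in Cloudman S91. Stc2, a secreted glycoprotein, had 27.3 in 4T1 and 10.8 in Cloudman S91 and was not listed in B16-F1. Ddit4, an inhibitor of mTOR signalling that other stresses also induce, had 98.8 in 4T1 against 10.2 in B16-F1, a 9.71-fold excess [8.21 to 11.6]. Rbpj, the transcription factor of the Notch pathway, had 76.5 in 4T1 against 9.91 in Cloudman S91, although its expected counts were not whole, and Tgfa, an EGF receptor ligand, had 8.89 against 0.03. The glucose transporter Slc2a3 (6.57) was called in B16-F1 over Cloudman S91 (0.14) and over 4T1 (not listed), and Angptl4, a lipase inhibitor, was called in Cloudman S91 (3.19) over B16-F1 (not listed).

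Eno1, a glycolytic enzyme that HIF induces, was called higher in B16-F1 (1841) than in Cloudman S91 (139), but the value is uncertain since Eno1b is a near-identical copy and reads can be divided between them. Eno1 and Eno1b together had 1841 in B16-F1 and 230 in Cloudman S91, against 1390 in 4T1. Rows without a symbol that carry the same product description held a further FPKM 682 in 4T1, 120 in Cloudman S91 and 0.6 in B16-F1, at their own lengths, so neither the size of the gap nor the order of B16-F1 and 4T1 is settled for this product.

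Within Cloudman S91, several HIF targets that B16-F1 expressed were near or under 10 counts: Egln3 (not listed), Pdk1 (4 counts), Plod2 (8 counts) and Slc2a3 (4 counts). They were picked out after their values were seen. On the wider lists, 8 of 97 genes compared were called higher in B16-F1, and 5 under median-of-ratios or upper-quartile scaling. The 4 called higher in Cloudman S91 included Stc2 and Angptl4. Among all genes compared, 2.33% were called higher in B16-F1 and 3.19% higher in Cloudman S91. Other targets on the same lists were well expressed in that library, such as Bnip3l at 24.96, P4ha1 at 14.8 and Vegfa at 17.7. The same library had the highest Hif1a level of the 3 and the lowest levels of Egln3, Ndrg1 and Car9. For Car9 it could not be told apart from B16-F1, with a ratio of 1.79 [0.96 to 3.46].

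**Figure D5:**
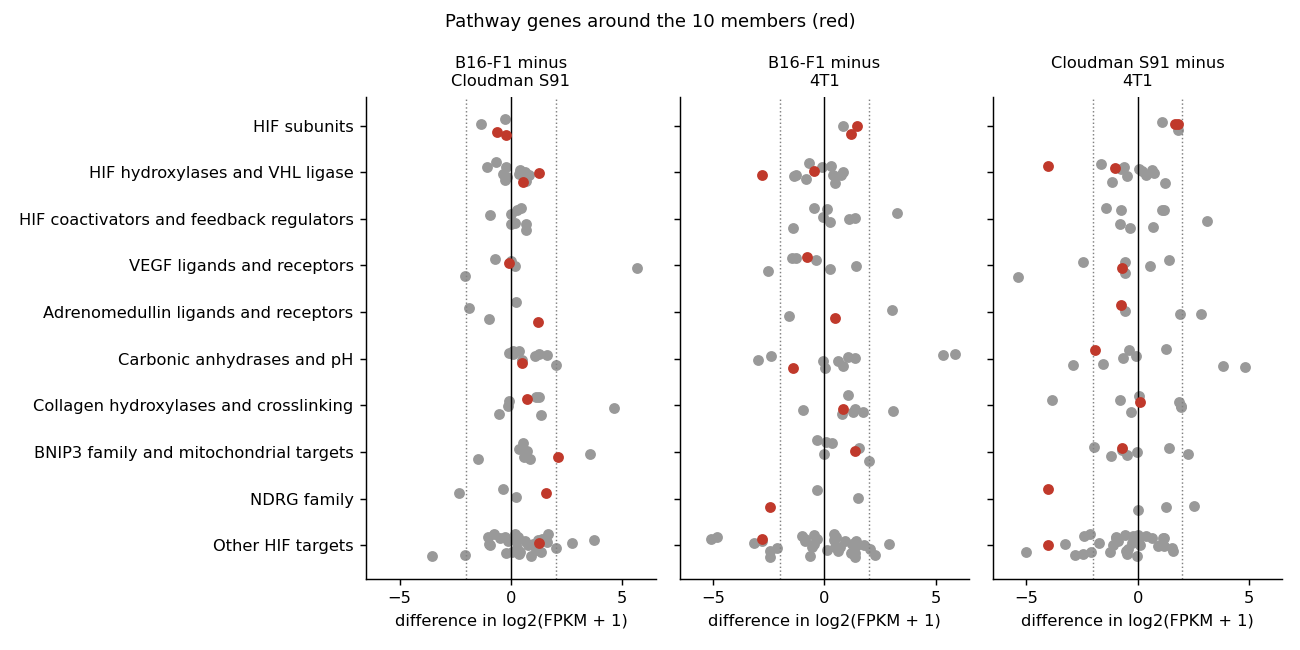
Differences in log2(FPKM + 1) of the genes on 10 pathway lists for each pair of lines, 1 dot per gene, with the 10 hypoxia response genes in red and dotted lines at the 4-fold rule. Dots fall on both sides of 0 in every panel, and the widest gaps on the lists of VEGF receptors and carbonic anhydrases belong to genes that are not among the 10.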

How the data were processed

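RNA of 3 mouse cell lines was sequenced, 1 library each, as polyadenylated RNA from frozen pellets, per the labels' protocols. The company BGI filtered and processed the reads, per the series' design text, and the submitters' processing notes name HISAT, StringTie and the build mm10 without naming a counting program. The authors' files give expected counts per gene, not normalised, and FPKM, both per the file headers. The deposited FPKM was close to the expected count scaled to the listed length and the table total, but not equal to it. Over well-counted rows, the total implied by FPKM, count and length had a median of 0.980 to 0.987 of the table total. Short genes lay further off, with a deposited FPKM above this scaling, such as Tceb2 in B16-F1 (248 from 1018 counts at length 508). Each table was matched to its line by its name. Rows without a symbol held 2.24% to 4.32% of counts and were left out, and a gene not listed was taken as 0.

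Differences were computed in log2(FPKM + 1), where a fold is understated for low genes, with Python 3.11.15, pandas 2.3.3 and scipy 1.17.1. Intervals are exact 95% Poisson intervals for 1 library and conditional binomial intervals for a ratio, from rounded counts scaled to FPKM. A bound against an unlisted gene uses 3 counts in that library. PCR copies make reads less independent than these intervals assume. The calculation was tested on simulated data. The members, the 10 lists around them and the alternatives were chosen with earlier results of these data known. Genes that are not members were named by rule: up to 4 per list and pair with the largest called difference, and close relatives of a member. Positions and promoters are RefSeq's for GRCm38.p6, which shares its primary chromosome sequence with mm10.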

Additional observations from a re-analysis of the deposited data

How the results depend on the processing

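With 1 library per line no result has a replicate check, and no paired analysis was possible because no line has a replicate. The member differences were recomputed under 6 alternatives, with the Bnip3 row added below making 182 values. None changed sign, and 40 left a band on the log2(FPKM + 1) scale. The band sets the lower Poisson limit of either library against the upper limit of the other. A changed pseudocount or unit moves a low gene by itself, so the 40 are not a count of changes beyond counting error. Ndrg1 against 4T1 and Egln3 between Cloudman S91 and 4T1 passed the rule in all 6, and Egln3 between B16-F1 and 4T1 in 5, missing it at a pseudocount of 5 (-1.68). Members called between B16-F1 and Cloudman S91 (1 as reported, Bnip3) numbered 2 at a pseudocount of 0.1, under TPM and in counts over the library total, 0 at a pseudocount of 5, under median-of-ratios and upper-quartile scaling and at 8-fold, 4 at 2-fold, and 0 with the unnamed BNIP3 row added, an alternative chosen after seeing the data. Between B16-F1 and 4T1 (2 as reported) they numbered 3 at a pseudocount of 0.1 and in counts over the library total, 1 at a pseudocount of 5, 6 at 2-fold and 0 at 8-fold, and between Cloudman S91 and 4T1 (2 as reported) 4 at a pseudocount of 0.1, under TPM and in counts over the library total and 6 at 2-fold. The members' median between B16-F1 and 4T1, 0.0061, turned to -0.073 at a pseudocount of 5 and to -0.0299 under median-of-ratios scaling, so it has no direction, and the cause was not tested. List genes called, in the order of the 3 pairs, numbered 20, 25 and 30 at a pseudocount of 0.1, 3, 10 and 10 at a pseudocount of 5, 32, 50 and 51 at 2-fold, 5, 9 and 9 at 8-fold, and 29 in the last pair in counts over the library total, against 12, 20 and 19 as reported. Filters on low values changed no count of members. Of all genes, 10.8% were called between the melanoma lines at a pseudocount of 0.1 and 1.55% at a pseudocount of 5. Depth limits Car9, Adm and Epas1, each at 16 to 125 counts where listed, and Egln3 in B16-F1 at 33 counts.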
